A study of Mus musculus with 12 samples.

Results

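The cytosolic ribosomal RNA (rRNA) fragments were the small RNA reads that the authors' annotation placed in its rRNA database under any named entry other than the mitochondrial 12S and 16S rRNAs. The 6 entries chosen in this way, of 1387 annotated subclasses in all, were 28S, 18S, 5.8S, 5S and 45S rRNA and a 4.5S entry. The 45S precursor is made by RNA polymerase I and holds the 18S, 5.8S and 28S sequences with spacers between them, which nucleases cut away. 18S rRNA is the RNA of the small ribosomal subunit. 28S, 5.8S and 5S rRNA belong to the large subunit, and 5S rRNA is made from genes of its own by RNA polymerase III. The ribosome of mammals has no 4.5S rRNA, and the files do not say which RNA the 4.5S entry holds, so totals are also given without it. Mature sperm translate little and have shed most of their cytoplasm, and their rRNA is known to be largely fragmented.

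The libraries came from mouse sperm and from TM4 cells, a line of mouse Sertoli cells, the somatic cells that nurse germ cells in the testis. Mice received a control diet (CD, AIN-93G, with 16% of the energy from fat) or a high-fat diet (HFD, D12492, with 69% from fat by the labels and 60% by the methods) for 7 weeks from 4 weeks of age by the labels. The methods put tissue collection at 12 weeks of age, and the study also names a start later than that of the labels. Sperm came from the epididymis, and each of the 3 libraries per diet pooled 3 sperm samples. TM4 cells were non-treated (Ctrl), treated with 10 µM Compound C (CC), an inhibitor of the energy sensor AMPK, for 12 h, or made to overexpress the full angiogenin coding sequence from an expression plasmid (Ang OE), with 2 libraries per group. The sources used here name no empty plasmid for the Ctrl cells. Angiogenin is a ribonuclease that cuts tRNAs and that also enters the nucleolus and stimulates rRNA transcription. The labels do not say that the TM4 libraries came from separate cultures, so p-values for TM4 cells measure the spread between these libraries, which may be technical. The small RNA files hold no mRNA with which the overexpression could be checked.

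Reference sequence is printed for 18S rRNA, the member whose levels differed most between the groups of TM4 cells and whose reads mostly matched the genome. Rn18s-rs5, an rRNA gene in the mouse annotation used here (GENCODE M39, build GRCm39, whereas the submitters' notes name mm10), lies on the plus strand of chromosome 17 and is 1849 nt long. Its first and last 100 bases are given at chr17:40157244-40157343 and chr17:40158993-40159092.
Rn18s-rs5, first 100 bases: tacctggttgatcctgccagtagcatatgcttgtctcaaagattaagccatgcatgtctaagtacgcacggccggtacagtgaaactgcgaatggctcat
Rn18s-rs5, last 100 bases: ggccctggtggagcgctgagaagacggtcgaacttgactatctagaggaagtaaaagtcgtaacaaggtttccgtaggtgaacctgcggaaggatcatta
The files give reads per entry, with neither positions within the rRNAs nor read lengths, so it is not known which of these stretches the fragments came from. Of 354 transcripts that GENCODE calls rRNA, 1 was over 150 bases, that of Rn18s-rs5.

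Clean reads, those left after trimming, numbered 31710445 to 41532413 per sperm library and 51457711 to 64038150 per TM4 library. Replicates differed by more than counting noise in every pair, so counting error is small beside the spread between libraries. Among microRNAs known from other cell types, those of epithelium summed to 3004 to 5704 RPM (reads per 1000000 clean reads) in sperm libraries and 0.666 to 1.46 RPM in TM4 libraries. The 4 listed for red blood cells all had reads in every sperm library and summed to 9443 to 16991 RPM there, with overlapping diets. Most of this sum came from mir-486a and mir-486b, whose nearly equal values may count shared reads under both names, whereas mir-451a stood at 449 to 813 RPM and mir-144 at 39.3 to 99.9 RPM. In TM4 libraries the same list summed to 1010 to 1526 RPM, again mostly mir-486a and mir-486b, with mir-451a at 0.0949 to 0.513 RPM. The 3 listed for white blood cells summed to 233 to 250 RPM on the CD and 291 to 477 RPM on the HFD, without overlap, and their part in the diet results was not tested. Of these, mir-142a alone did not overlap (194 to 207 RPM on the CD and 257 to 396 RPM on the HFD), whereas mir-223 and mir-150 did. The 6 listed for germ cells summed to 1140 to 3009 RPM on the CD and 1160 to 1377 RPM on the HFD. In TM4 cells, 4 of them had reads in every library of each group and mir-880 was at 0 in all 3 groups. The sum there was 547 to 567 RPM in Ctrl, 503 to 551 RPM in CC and 1119 to 1255 RPM in Ang OE cells. Most of this TM4 sum was mir-34c, at 510 to 524 RPM in Ctrl, 459 to 507 RPM in CC and 1062 to 1201 RPM in Ang OE cells. In TM4 cells mir-741, mir-871 and mir-880 stood at 0 to 0.344 RPM. The 2 listed for smooth muscle summed to 10280 to 22344 RPM in sperm libraries, 27718 to 28932 RPM in Ctrl, 27687 to 39477 RPM in CC and 58059 to 74728 RPM in Ang OE cells. Nearly all of this was mir-143, and mir-145a stood at 632 to 653 RPM in Ctrl, 672 to 777 RPM in CC and 693 to 862 RPM in Ang OE cells. Whether these microRNAs bear on the Ang OE results was not tested.

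Nearly all rRNA reads were cytosolic in every group. The cytosolic share of rRNA reads was 97.8% ± 0.660 (SD, n = 3) in CD sperm, 98.2% ± 0.406 (SD, n = 3) in HFD sperm, 98.8% ± 0.0708 (SD, n = 2) in Ctrl, 98.8% ± 0.0879 (SD, n = 2) in CC and 98.8% ± 0.0702 (SD, n = 2) in Ang OE cells. Without the 4.5S entry the shares were 97.5% for CD and 98.0% for HFD sperm, and 95.1% for Ctrl, 96.1% for CC and 97.5% for Ang OE cells. The remaining reads of the class belonged to mitochondrial 16S rRNA for the most part.

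In sperm, fragments of 28S rRNA led, followed by those of 18S rRNA. Summed over the members, cytosolic rRNA numbered 242843, 247439 and 160188 RPM in the 3 CD libraries and 324334, 300452 and 241820 RPM in the 3 HFD libraries. The lowest HFD library lay below the 2 higher CD libraries, so the diets overlapped. RPM is a share of each library's reads, and fewer cells of a type and less RNA per cell cannot be told apart in it.

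28S rRNA numbered 149305, 150345 and 101609 RPM on the CD and 180640, 181186 and 154697 RPM on the HFD. It was the only member whose diets did not overlap, 1 of 6 beside a background of 6.66% of all 736 tested subclasses that lay higher in every HFD library. Its fitted difference was 0.36 ± 0.21 on the log2 scale (SE, 1.29-fold), with an edgeR adjusted p of 0.743. 18S rRNA numbered 60227, 59073 and 35869 RPM on the CD and 105391, 77497 and 55142 RPM on the HFD. The first HFD library held the highest 18S level of the series and the third lay below 2 CD libraries. The 18S difference was 0.62 ± 0.28 on the log2 scale (SE, 1.53-fold) and did not pass (edgeR adjusted p = 0.645). It was 0.36 without the first HFD library, beside 0.33 for 28S rRNA, and 0.82 without the third.

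The short members of the large subunit were lower in reads. 5.8S rRNA, which pairs with 28S rRNA in the ribosome, numbered 11452, 13464 and 7267 RPM on the CD and 12580, 13972 and 9712 RPM on the HFD. 5S rRNA numbered 11134, 12950 and 7649 RPM on the CD and 13122, 13917 and 11372 RPM on the HFD. Both overlapped between the diets, with log2 differences of 0.17 ± 0.26 for 5.8S (SE, edgeR adjusted p = 0.923) and 0.28 ± 0.23 for 5S (SE, edgeR adjusted p = 0.837). The 45S entry numbered 10333, 10893 and 7294 RPM on the CD and 11961, 13432 and 10192 RPM on the HFD, a log2 difference of 0.32 ± 0.22 (SE, edgeR adjusted p = 0.765). The 4.5S entry was rare in sperm, with 393, 714 and 502 RPM on the CD and 641, 449 and 704 RPM on the HFD, a log2 difference of 0.16 ± 0.27 (SE, edgeR adjusted p = 0.942).

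No member was called between the diets at an adjusted p under 0.05, and neither was any of the 736 subclasses (0% called by edgeR). At an unadjusted p under 0.05, 56 subclasses (7.61%) and 0 members passed, and DESeq2 called 13 subclasses (1.77%) and 0 members. All 6 fitted differences were above 0, with a median of 0.30 on the log2 scale against 0.10 over all tested subclasses, of which 65.6% were above 0. The third CD library was the lowest of the 6 sperm libraries in 28S, 18S, 5.8S, 45S and 5S rRNA, and without it the difference was 0.41 for 18S, 0.20 for 28S and −0.04 for 5.8S rRNA on the log2 scale.

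**Figure D1:**
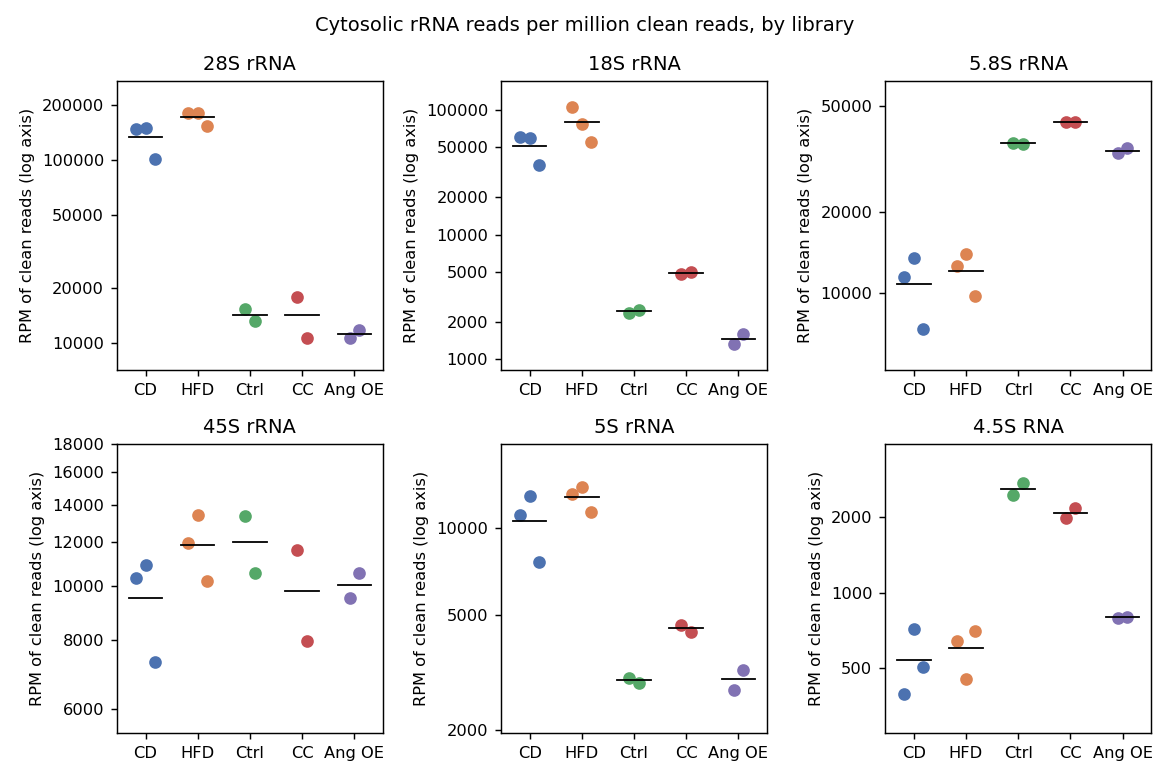
RPM of clean reads (log axes) of the 6 cytosolic rRNA entries, with 1 point per library and a line at the mean of each group. 28S and 18S rRNA lie far higher in sperm (CD, HFD) than in TM4 cells (Ctrl, CC, Ang OE), 5.8S rRNA and the 4.5S entry lie higher in TM4 cells, and 45S rRNA lies in 1 range in both.

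The members were also compared between the diets as shares of rRNA reads. 28S rRNA took 60.5% ± 0.985 (SD, n = 3) of the rRNA reads on the CD and 58.9% ± 3.87 (SD, n = 3) on the HFD, with an exact 2-sided permutation p of 0.6. 18S rRNA took 23.2% ± 1.34 (SD, n = 3) on the CD and 26.6% ± 4.95 (SD, n = 3) on the HFD (exact permutation p = 0.4). Of 8 such tests over the rRNA entries, the mitochondrial ones included, the lowest p was 0.2, for 5.8S rRNA, and the smallest that 3 libraries against 3 allow is 0.1. The ratio of 28S to 18S reads was 2.48, 2.55 and 2.83 on the CD and 1.71, 2.34 and 2.81 on the HFD, so the lowest value came from the first HFD library and the ranges overlapped.

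The make-up of the cytosolic rRNA reads differed between sperm and TM4 cells. 5.8S rRNA led with 49.9% to 59.0% of the cytosolic rRNA reads, against 3.88% to 5.44% in sperm. 28S rRNA took 14.6% to 21.2% in TM4 cells and 55.7% to 64.0% in sperm, and 18S rRNA 2.26% to 6.78% in TM4 cells and 22.4% to 32.5% in sperm. The 45S entry took 10.8% to 18.3% in TM4 cells and 3.69% to 4.55% in sperm. 5S rRNA was the member with the steadiest share, at 4.13% to 5.90% in TM4 cells and 4.05% to 5.23% in sperm. These are shares of reads and not of molecules, because the members differ in length.

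**Figure D2:**
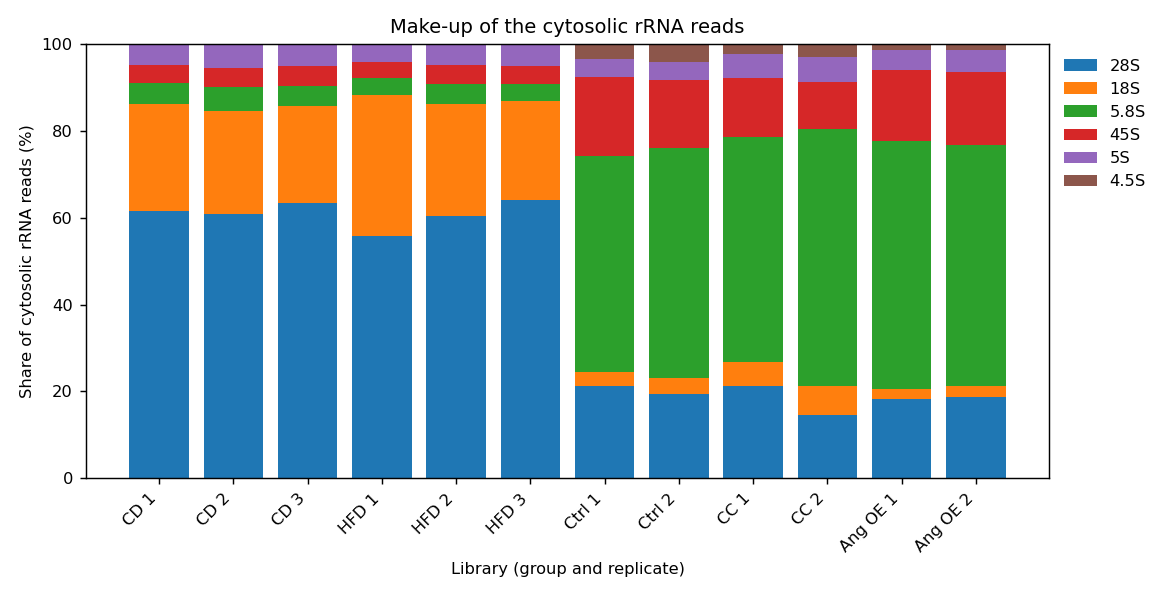
Share of each cytosolic rRNA entry (% of cytosolic rRNA reads) in each of the 12 libraries. In sperm 28S and 18S rRNA fill most of each bar, and in TM4 cells 5.8S rRNA takes 49.9% to 59.0%.

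Ctrl cells and CD sperm were compared directly in a fit of their 5 libraries. Cell type, culture and sequencing run cannot be told apart in this comparison, and the labels name no run. edgeR called 5 of the 6 members in it, 2 higher and 3 lower in the cells, beside a background of 88% of 889 tested subclasses called, 52.8% higher and 35.2% lower. 18S rRNA stood at 2426 ± 97.1 RPM in Ctrl cells (SD, n = 2) and 51723 ± 13742 RPM in CD sperm (SD, n = 3), 21.3-fold lower in the cells (log2 difference −4.41 ± 0.30 SE, edgeR adjusted p = 1.0e-05). 28S rRNA was 9.31-fold lower in the cells (−3.22 ± 0.24 SE, edgeR adjusted p = 1.6e-05) and 5S rRNA 3.57-fold lower (−1.84 ± 0.25 SE, edgeR adjusted p = 0.000303). 5.8S rRNA was 3.38-fold higher in the cells (1.76 ± 0.26 SE, edgeR adjusted p = 0.000444) and the 4.5S entry 4.87-fold higher (2.28 ± 0.26 SE, edgeR adjusted p = 0.000112). The 2 subunit RNAs cut from 1 precursor, 18S and 5.8S, thus lay on opposite sides, with 0.190 to 0.228 5.8S reads per 18S read in CD sperm and 14.5 to 15.5 in Ctrl cells. Which entry a fragment shared by 45S and 18S, 5.8S or 28S rRNA enters was set by the authors' annotation. Reads of the 45S entry thus do not measure the level of the precursor. The 45S entry did not pass, at 0.33 ± 0.22 on the log2 scale (SE, edgeR adjusted p = 0.183), and its direction turned with the scaling, to −0.42 with TMM factors. It was called higher in the cells with all rRNA reads as library size (1.95, edgeR adjusted p = 3.9e-05) and lower by DESeq2 with its own size factors (−0.64, adjusted p = 0.0205). With all rRNA reads as library size the 5S difference shrank to −0.20 and its call was lost (edgeR adjusted p = 0.532). The median over all tested subclasses was 0.97 in this comparison and 0.21 with TMM factors. Relative to that shift, 18S, 28S and 5S rRNA stayed lower and 5.8S rRNA and the 4.5S entry higher under both.

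CC and Ctrl cells were compared to ask whether AMPK inhibition alters the small RNAs of TM4 cells, and no member was called. 18S rRNA numbered 2358 and 2495 RPM in Ctrl cells and 4780 and 5009 RPM in CC cells. Both CC libraries lay above both Ctrl libraries, 2.02-fold on average, and the log2 difference was 1.01 ± 0.15 (SE), with an edgeR adjusted p of 0.0678. 5S rRNA, at 3024 and 2900 RPM in Ctrl and 4617 and 4361 RPM in CC cells, differed by 0.60 ± 0.14 (SE, 1.52-fold, edgeR adjusted p = 0.150). 5.8S rRNA numbered 36511 and 36099 RPM in Ctrl and 43734 and 43616 RPM in CC cells, a log2 difference of 0.27 ± 0.09 (SE, edgeR adjusted p = 0.250). These 3 members lay higher in both CC libraries, as did 26.3% of the 818 tested subclasses.

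The other 3 members did not lie higher in both CC libraries, and none of them passed. 28S rRNA numbered 15485 and 13238 RPM in Ctrl and 17959 and 10749 RPM in CC cells, and 45S rRNA 13376 and 10565 RPM in Ctrl and 11618 and 7959 RPM in CC cells. The second CC library was the lower of the pair in both, and the CC pair spanned the Ctrl pair in 28S rRNA. The log2 difference was −0.00 ± 0.23 (SE, edgeR adjusted p = 1.00) for 28S and −0.29 ± 0.20 (SE, edgeR adjusted p = 0.557) for 45S rRNA. The 4.5S entry, at 2469 and 2755 RPM in Ctrl and 1996 and 2177 RPM in CC cells, was the 1 member that lay lower in both CC libraries, beside 21.3% of all tested subclasses, with a log2 difference of −0.32 ± 0.14 (SE, edgeR adjusted p = 0.353).

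No member and no other subclass was called between CC and Ctrl cells by edgeR (0% of 818). At an unadjusted p under 0.05, 115 subclasses (14.1%) passed, among them 18S, 5S and 5.8S rRNA. The 18S call depended on the fit. Among the other tools and filters, it was made by DESeq2 with clean reads as size factors (adjusted p = 2.1e-05), where 4.03% of subclasses were called, by DESeq2 with its own size factors (adjusted p = 0.000750), where 3.3% were, and by edgeR without a filter on low counts (adjusted p = 0.0215), where 0.331% were. Its log2 difference was 0.81 to 1.05 under every alternative tried.

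Overexpression of angiogenin went with fewer 18S and 4.5S fragments. The 4.5S entry numbered 2469 and 2755 RPM in Ctrl and 792 and 801 RPM in Ang OE cells, 3.28-fold lower (log2 difference −1.71 ± 0.14 SE, edgeR adjusted p = 0.00418). 18S rRNA numbered 2358 and 2495 RPM in Ctrl and 1319 and 1598 RPM in Ang OE cells, 1.66-fold lower (−0.73 ± 0.14 SE, edgeR adjusted p = 0.0157). These 2 of 6 members were called, beside a background of 25.4% of 818 subclasses called in either direction and 13.6% called lower. With all rRNA reads as library size the 18S difference was −0.52 and did not pass (edgeR adjusted p = 0.110). Neither did it with unmatched reads alone (−0.88, edgeR adjusted p = 0.0825). The 18S call was lost when any of the 4 libraries was left out (edgeR adjusted p = 0.0527 to 0.0903, log2 difference −0.88 to −0.60), and the 4.5S call was lost without the first Ang OE library (edgeR adjusted p = 0.0544, log2 difference −1.70). Over all subclasses the calls fell from 208 to 69 of 812 without the first Ctrl, 38 of 795 without the second Ctrl, 0 of 813 without the first Ang OE and 13 of 807 without the second Ang OE library. The count of 0 is by edgeR, beside 246 subclasses at an unadjusted p under 0.05.

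The remaining members did not pass. 28S rRNA numbered 10692 and 11803 RPM in Ang OE cells, below both Ctrl libraries (log2 difference −0.35 ± 0.23 SE, edgeR adjusted p = 0.303), and 45S rRNA 9509 and 10536 RPM (−0.26 ± 0.20 SE, edgeR adjusted p = 0.377). 5.8S rRNA numbered 33369 and 34748 RPM in Ang OE cells, a log2 difference of −0.09 ± 0.09 (SE, edgeR adjusted p = 0.447). 5S rRNA numbered 2747 and 3232 RPM and overlapped the Ctrl libraries (0.01 ± 0.14 SE, edgeR adjusted p = 0.956). Of the 6 members, 5 lay lower in both Ang OE libraries, beside 41.1% of all tested subclasses. The median was −0.30 over the members and −0.20 over all tested subclasses, and the latter was −0.05 with TMM factors. Among all calls, 97 were higher and 111 lower with clean reads as library size, and 114 higher and 74 lower with TMM factors. 18S rRNA and the 4.5S entry stayed lower with TMM factors, at −0.59 and −1.57, and 5.8S rRNA turned from −0.09 to 0.05.

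CC and Ang OE cells share their Ctrl libraries, so their differences from Ctrl are not independent, and both treatments were also compared with each other. 18S rRNA was 3.36-fold lower in Ang OE than in CC cells (log2 difference −1.75 ± 0.15 SE, edgeR adjusted p = 0.00223). The 4.5S entry was 2.62-fold lower (−1.39 ± 0.14 SE, edgeR adjusted p = 0.00223), 5S rRNA likewise lower (−0.59 ± 0.14 SE, edgeR adjusted p = 0.0183) and 5.8S rRNA 1.28-fold lower (−0.36 ± 0.09 SE, edgeR adjusted p = 0.0208). These 4 of 6 members were called, beside a background of 33.4% of 818 subclasses called and 19.9% called lower. 28S rRNA (−0.35 ± 0.23 SE, edgeR adjusted p = 0.272) and 45S rRNA (0.03 ± 0.20 SE, edgeR adjusted p = 0.897) did not pass. The calls of 5S and 5.8S rRNA were lost with TMM factors, at −0.42 (edgeR adjusted p = 0.0618) and −0.19 (edgeR adjusted p = 0.148), where the calls over all subclasses went from 110 higher and 163 lower to 154 higher and 119 lower. Both calls were lost with all rRNA reads as library size, at −0.20 for 5S (edgeR adjusted p = 0.490) and 0.024 for 5.8S rRNA (edgeR adjusted p = 0.926). DESeq2 with its own size factors made neither call (adjusted p = 0.0852 and 0.371). They were also lost without the first CC library (edgeR adjusted p = 0.0598 and 0.0828) and without the first Ang OE library (edgeR adjusted p = 0.0743 and 0.0568). The 5.8S call was lost as well without the second CC library (edgeR adjusted p = 0.0805), in a fit of the compared groups alone (edgeR adjusted p = 0.0503), without a filter (edgeR adjusted p = 0.0510) and by DESeq2 with clean reads (adjusted p = 0.0532). Without the second CC library 28S rRNA was called instead (−0.68, edgeR adjusted p = 0.0305). In the order of their 18S levels, the TM4 groups stood as CC, Ctrl and Ang OE, with no overlap between neighbours, and in that of the 4.5S entry as Ctrl, CC and Ang OE, where the difference between Ctrl and CC cells did not pass. For 28S rRNA the means of Ctrl and CC cells were nearly equal (14361 and 14354 RPM) with overlap, and that of Ang OE cells was lowest and overlapped CC. In the order of their 45S levels the groups stood as Ctrl, Ang OE and CC, where Ctrl lay above Ang OE cells without overlap but the difference did not pass, and Ang OE and CC cells overlapped.

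**Figure D3:**
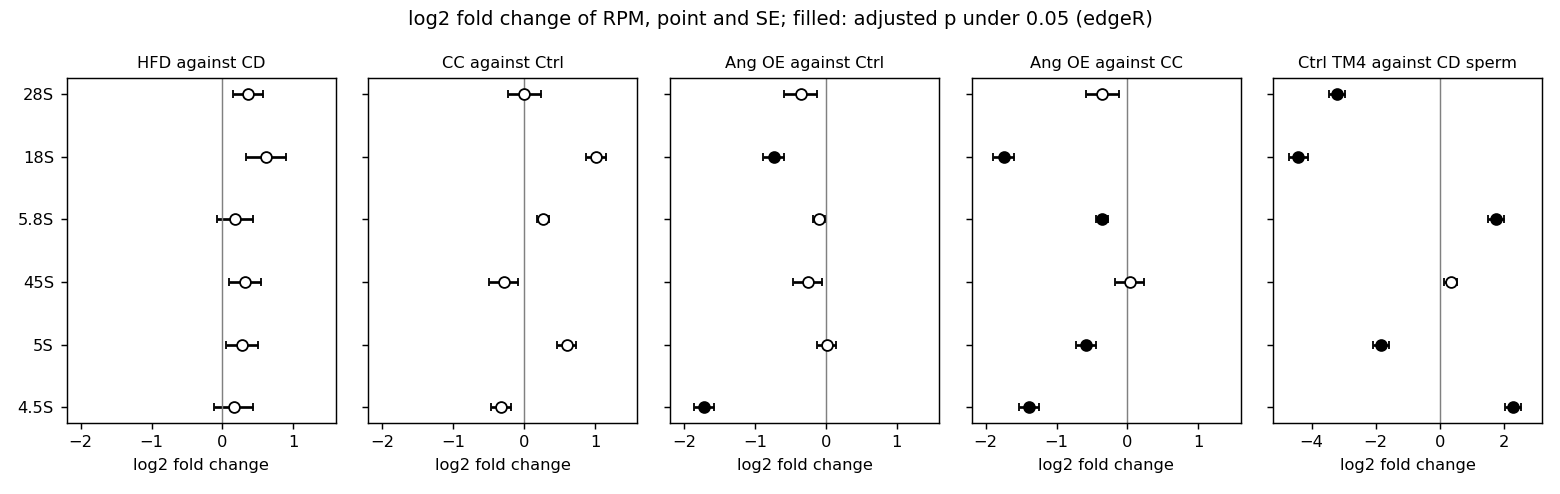
log2 fold changes of the 6 entries (points) with their standard errors (bars) in the 5 comparisons, where filled points passed an edgeR adjusted p under 0.05 and the last panel has a wider axis. 18S rRNA lies at 1.01 for CC and at −0.73 for Ang OE against the same Ctrl libraries.

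The members fell into classes by how many of their reads matched the genome, a property that the summed reads hide. Reads without a genome match were still placed in these entries by the rRNA database, and why they lacked a match was not tested. All 5S and 4.5S reads matched it in every library. Of the 18S reads, 3.02% to 3.99% in sperm and 5.60% to 7.71% in TM4 cells had no genome match. The share without a match was 82.8% to 91.9% for 45S and 97.8% to 99.7% for 5.8S rRNA over all 12 libraries. 28S rRNA lay between, at 61.8% to 66.8% in sperm and 35.1% to 61.4% in TM4 cells, and was the member whose share varied most. In TM4 cells its unmatched share was 44.6% and 38.7% in Ctrl, 49.1% and 35.1% in CC and 61.4% and 53.4% in Ang OE libraries, so both Ang OE libraries lay above the other 4. Over all members, 50.1% ± 1.29 of the cytosolic rRNA reads in CD sperm (SD, n = 3), 75.1% ± 1.18 in Ctrl (SD, n = 2) and 82.0% ± 1.56 in Ang OE cells (SD, n = 2) had no genome match.

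**Figure D4:**
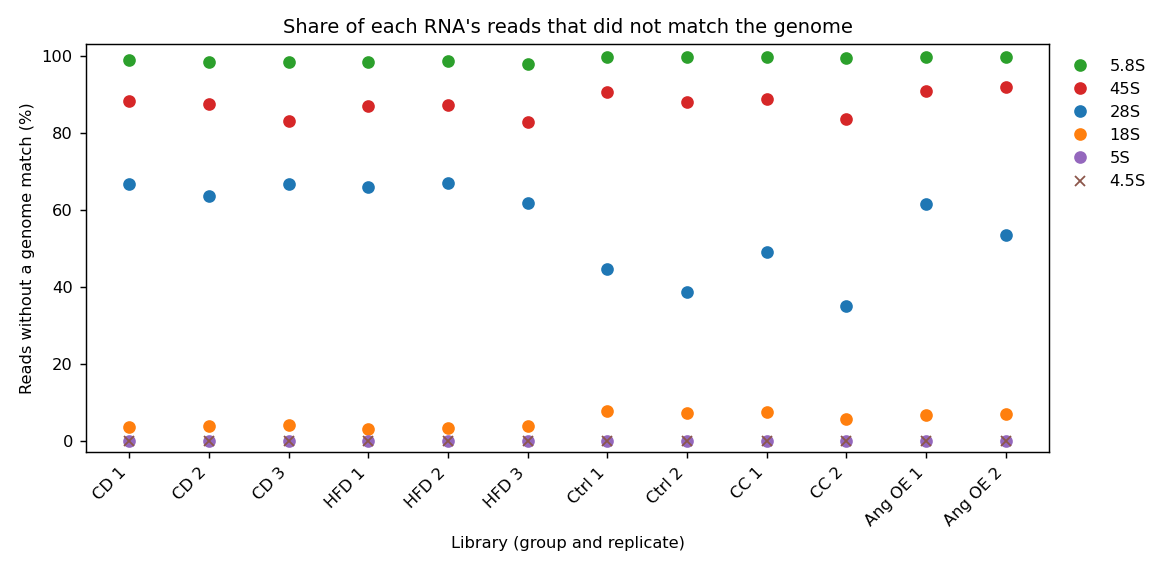
Share of the reads of each entry that did not match the genome (%), by library. 5.8S rRNA lies at 97.8% to 99.7% and 45S rRNA at 82.8% to 91.9%, 28S rRNA changes between libraries, and 5S rRNA and the 4.5S entry lie at 0.

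The results for 28S, 45S and 5.8S rRNA depended on whether reads with or without a genome match were counted. Matched 28S reads numbered 8581 and 8113 RPM in Ctrl, 9141 and 6980 RPM in CC and 4128 and 5500 RPM in Ang OE cells. Unmatched 28S reads numbered 6904 and 5124 RPM in Ctrl, 8818 and 3769 RPM in CC and 6563 and 6303 RPM in Ang OE cells. The matched reads were thus lowest in both Ang OE libraries, and the unmatched reads were not. With matched reads alone, 28S rRNA was called lower in Ang OE than in Ctrl cells (log2 difference −0.79 ± 0.19 SE, edgeR adjusted p = 0.0242), and with unmatched reads alone the difference was 0.10 ± 0.33 (SE, edgeR adjusted p = 0.873). Matched 45S reads numbered 1251 and 1288 RPM in Ctrl, 1305 and 1321 RPM in CC and 888 and 857 RPM in Ang OE cells, and were likewise called lower in Ang OE than in Ctrl cells (−0.54 ± 0.13 SE, edgeR adjusted p = 0.0241). With matched reads alone, 4 of 6 members were called lower in Ang OE than in Ctrl cells, beside 12.8% of 787 subclasses, and all 6 lower in Ang OE than in CC cells, beside 18.9% of 787.

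**Figure D5:**
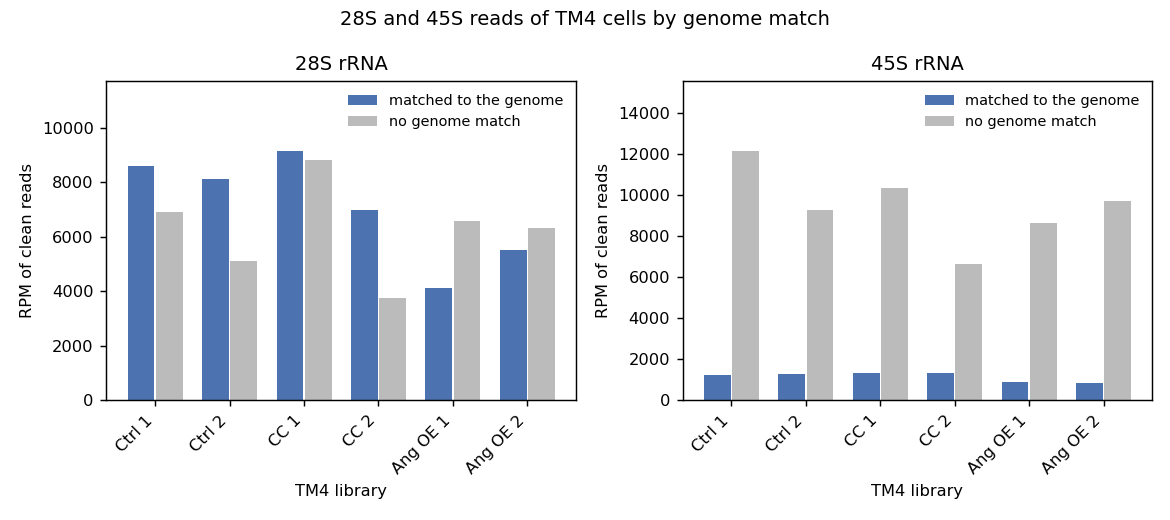
RPM of 28S (left) and 45S rRNA (right) in the 6 TM4 libraries, with reads that matched the genome in blue and reads that did not in grey. The blue bars are lowest in both Ang OE libraries for both RNAs, and the grey bars are not.

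The higher 5.8S level of TM4 cells had to lie in the reads without a genome match, which made up 97.8% to 99.7% of 5.8S reads. These numbered 11305, 13256 and 7138 RPM in the CD libraries and 36362 and 35929 RPM in the Ctrl libraries. The matched 5.8S reads, a small remainder, numbered 146, 209 and 129 RPM in CD and 149 and 170 RPM in Ctrl libraries. Their log2 difference was −0.02 ± 0.24 (SE, edgeR adjusted p = 0.948). 18S rRNA was lower in Ctrl cells than in CD sperm with matched reads alone (−4.47 ± 0.30 SE, edgeR adjusted p = 1.3e-05) and with unmatched reads alone (−3.44 ± 0.31 SE).

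Related RNAs were set beside the members. The mitochondrial 16S rRNA stood at 4647 ± 347 RPM in CD and 5058 ± 421 RPM in HFD sperm (SD, n = 3) and was not called between the diets (log2 difference 0.12 ± 0.19 SE, edgeR adjusted p = 0.923). The mitochondrial 12S rRNA was rare in TM4 cells, at 1.95 ± 0.280 RPM in Ctrl and 0.914 ± 0.0775 RPM in Ang OE cells (SD, n = 2), and was called lower in the latter (−1.09 ± 0.21 SE, edgeR adjusted p = 0.0157). A separate rRNA entry from Rfam, a collection of RNA families, stood at 24.2 ± 3.14 RPM in Ctrl, 63.4 ± 11.8 RPM in CC and 21.3 ± 1.75 RPM in Ang OE cells (SD, n = 2). Like 18S rRNA it did not pass between CC and Ctrl (1.39 ± 0.20 SE, edgeR adjusted p = 0.0678) and was called between Ang OE and CC cells (−1.57 ± 0.20 SE, edgeR adjusted p = 0.00306). The Ensembl rRNA entry was called in none of the 5 comparisons. The small nucleolar RNAs (snoRNAs) guide the modification of rRNA, and their Ensembl entry stood at 29761 ± 439 RPM in Ctrl and 19060 ± 1371 RPM in Ang OE cells (SD, n = 2), 1.56-fold lower (−0.64 ± 0.10 SE, edgeR adjusted p = 0.00974). Between CC and Ctrl it did not pass (−0.18 ± 0.10 SE, edgeR adjusted p = 0.436). None of 12 related entries was called between the diets or between CC and Ctrl cells. The nuclease RNAs RMRP and RPPH1 are held in 1 Ensembl ribozyme entry, which was called in no comparison within sperm or TM4 cells. Neither were the entries for small nuclear RNAs, which act in splicing, for Cajal body RNAs or for the Y RNAs RNY1 and RNY3.

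Over the 12 libraries, the summed cytosolic rRNA was set against 330 subclasses with at least 100 reads in every library, on log2 RPM centred within sperm and within TM4 cells. The nearest were mature tRNA-Thr-TGT (Pearson r = 0.834), the Rfam entry for other RNAs (r = 0.793) and mature tRNA-Ser-CGA (r = 0.765), against a median r of 0.125 over all 330. All points share their library's clean reads as denominator, and rRNA made up 16.5% to 32.9% of these in sperm and 5.92% to 8.58% in TM4 cells.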

How the data were processed

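Small RNA libraries of 6 mouse sperm and 6 TM4 samples were used, grouped by the sample labels. Per the methods and the submitters' notes, the authors checked reads with FastQC 0.12.0, trimmed them with Trimmomatic 0.40, kept 15 to 45 nt and annotated them with SPORTS 1.1 with 1 mismatch allowed (build mm10 by the labels). The deposited values are estimated counts of reads per class and subclass, with and without a genome match and without normalization. rRNA values are whole numbers that add up to the class total, so each rRNA read is counted once. Reads of other classes can be counted more than once, and the classes summed to 1.02 to 1.11 times the clean reads. The 45S entry holds the 18S, 5.8S and 28S sequences, so which entry a shared fragment enters was set by SPORTS.

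Matched and unmatched reads were added, divided by clean reads to give RPM, and the rounded counts of all subclasses that reached 10 reads in 3 or more sperm libraries or 2 or more TM4 libraries (2 for Ctrl against CD) were tested with edgeR 4.0.16 (quasi-likelihood, R 4.3.3), with clean reads as library size, no further scaling and Benjamini-Hochberg adjustment over all tested subclasses. All 6 TM4 libraries shared a fit. A subclass was called at an adjusted p under 0.05, and the test was tested on simulated data. Single shares of sperm were compared by exact permutation; 2 libraries against 2 cannot go below a p of 0.333, so shares of TM4 cells were not tested. Alternatives were DESeq2 1.42.0 with clean reads or its own size factors, TMM, other library sizes, other filters, matched reads alone, 45S left out, added reads, the replicate block, the compared groups alone and each library left out. Unmatched reads alone and 4.5S left out were added after seeing the data. The study's methods name ComBat-seq for batches of cells, but the labels name no batches, so it was not applied. A batch that differed between the TM4 groups therefore cannot be told apart from their treatments. All members, the related entries named in the text and the 3 subclasses most like the summed cytosolic rRNA are given; RMRP, RPPH1, 7SL and 7SK have no entry of their own. All 6 members passed the filter. The members, lists and microRNA markers were chosen with earlier results of these data known. Tables were made with pandas 2.3.3, scipy 1.17.1 and numpy 2.4.6 under Python 3.11.15, and figures with matplotlib 3.10.9. The sequence of 5S rRNA is not reported here.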

Additional observations from a re-analysis of the deposited data

How the results depend on the processing

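No member was called between the diets under any alternative tried. With clean reads without rRNA as library size, all 6 HFD to CD log2 differences were above 0, from 0.29 for the 4.5S entry to 0.76 for 18S rRNA. The members make up nearly all rRNA reads, so with these as library size they are set against their own sum. Their differences then lay around 0, at 0.20 for 18S, −0.039 for 28S, −0.22 for 5.8S, −0.088 for 45S, −0.12 for 5S and −0.25 for the 4.5S entry. With single libraries left out, 4.5S ran from −0.024 to 0.42 and 5.8S from −0.043 to 0.37. Between CC and Ctrl cells, 1 member was called without a filter (4 of 1208 subclasses) and by DESeq2 with its own size factors (27 of 818), and 2 by DESeq2 with clean reads (33 of 818). There, 28S rRNA was 0.015 with clean reads without rRNA as library size, 0.065 with unmatched reads alone and −0.42 to 0.32 with single libraries left out, and 45S rRNA 0.049 with matched reads alone. Between Ang OE and Ctrl cells, 1 member was called with all rRNA reads as library size (176 of 818 subclasses), 4 with matched reads alone (195 of 787), 0 with unmatched reads alone (35 of 145) and 0 to 1 with single libraries left out (0 to 69 subclasses). 5S rRNA was −0.0024 with clean reads without rRNA and −0.11 to 0.13 with single libraries left out, 5.8S rRNA 0.13 with all rRNA reads, 0.053 with TMM and 0.044 by DESeq2 with its own size factors, and 28S rRNA 0.10 with unmatched reads alone. Between Ang OE and CC cells, 2 members were called with all rRNA reads (261 of 818 subclasses), TMM (273), DESeq2 with its own size factors (288) or unmatched reads alone (68 of 145), and 2 to 4 with single libraries left out (104 to 209 subclasses). 28S rRNA was 0.054 with all rRNA reads, 0.032 with unmatched reads alone and −0.68 to 0.065 with single libraries left out, 5.8S rRNA 0.024 with all rRNA reads, and 45S rRNA −0.59 with matched reads alone and −0.21 to 0.33 with single libraries left out. Between Ctrl cells and CD sperm, 3 members were called with unmatched reads alone, which hold no 5S or 4.5S reads (126 of 143 subclasses), 4 with matched reads alone (754 of 860) and 6 by DESeq2 with its own size factors (747 of 889). With all rRNA reads as library size 5 were called (795 of 889), with 45S rRNA at 1.95 in place of 5S rRNA at −0.20. 45S rRNA was −0.42 with TMM, −0.64 by DESeq2 with its own size factors and −0.012 with matched reads alone, and 5.8S rRNA −0.017 with matched reads alone. With matched reads alone the cytosolic share of rRNA reads was 95.6% in CD and 96.6% in HFD sperm and 95.2% for Ctrl, 95.4% for CC and 93.5% for Ang OE cells. With all reads and without the 4.5S entry it was 95.1% for Ctrl, 96.1% for CC and 97.5% for Ang OE cells. Beyond these constructions, the cause of the changes was not tested.

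With the replicate number as a block, 18S rRNA was called between CC and Ctrl cells (edgeR adjusted p = 0.0451), so that 1 member passed, and no other call of a member changed between the diets or among the TM4 groups. The block was not fitted between Ctrl cells and CD sperm. The labels do not say that a number marks a shared animal or day. Deviations from the group means correlated at −0.24, −0.07 and 0.17 over the same-numbered sperm pairs. In TM4 cells they correlated at 0.58 for Ctrl with CC, −0.20 for Ctrl with Ang OE and 0.02 for CC with Ang OE. Whether same-numbered Ctrl and CC libraries shared a preparation that the Ang OE libraries did not was not tested. The numbers were not taken to pair the samples.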
